A study of Mus musculus with 2 samples.

Results

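Lum-type tumor cells were cells counted as pancreatic cancer cells, with RNA of the connective tissue genes Lum, Serpinf1 and Mfap4 and little keratin RNA. They were selected on measured values. A cell barcode needed at least 10000 UMIs (unique molecular identifiers, each standing for 1 counted RNA molecule), at most 5% of them mitochondrial, at least 3 UMIs of Cdkn2a, and C1qa, C1qb and C1qc together below 0.1% of its UMIs to count as a tumor cell. A tumor cell then needed at least 10 UMIs over Lum, Serpinf1 and Mfap4, more than over Penk, Fmod and Ccn5, with Krt8 and Krt18 together below 0.25% of its UMIs. This took 1986 of 14541 tumor cells, which were themselves part of 37971 barcodes. The iIRE library held 969 Lum-type cells and the control library held 1017. Tumor cells with Krt8 and Krt18 at or above 0.25% of UMIs, called epithelial-type here, numbered 2602 in iIRE and 2290 in control. Low-keratin tumor cells with at least 10 UMIs over Penk, Fmod and Ccn5, and no more over Lum, Serpinf1 and Mfap4, called Penk-type, numbered 577 in iIRE and 636 in control, and the other low-keratin tumor cells numbered 2874 in iIRE and 3576 in control.

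The study asked how pancreatic tumors change after irreversible electroporation that does not reach the whole tumor (insufficient irreversible electroporation, iIRE). Cells of FC1199, a line from the KPC mouse (a genetic model of pancreatic cancer in which Pdx1-Cre acts in the pancreas), had been injected into the pancreas of male C57BL/6 mice aged 5 to 7 weeks, and tumors of 7 to 9 mm were treated. The iIRE tumor received 99 pulses between needles 5 mm apart, and the control tumor, which grew from the same line in the same strain, had needles inserted without pulses according to the methods, while the results text calls the control tumors untreated. Both were taken on day 3 and sequenced with the 10x Genomics 5′ single-cell chemistry as 1 library per group, with the number of mice in each library not given in the sources used here. The tumors therefore grew from a single transplanted line and did not arise in place. That a Lum-type cell belongs to this line rests on the Cdkn2a cut, whose edge is described below.

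Epithelial cells hold together through keratin filaments, cadherins and claudins and rest on a basement membrane. In epithelial-mesenchymal transition, a program known in development, wound repair and carcinoma, such cells lose these parts and make collagens and other matrix proteins like a fibroblast, under transcription factors that include Zeb1, Snai1, Twist1 and Prrx1. Pancreatic carcinoma is also rich in host fibroblasts, which secrete the same collagens, so the origin of a matrix-producing cell has to be read from other genes. Lumican (Lum) is a small leucine-rich proteoglycan that spaces collagen fibrils, Serpinf1 encodes the secreted factor PEDF, and Mfap4 encodes a glycoprotein of elastic fibers. Acta2 encodes smooth muscle actin, the actin of contractile cells and myofibroblasts, and Mest is an imprinted gene of the mesoderm that is read from the paternal copy.

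The iIRE library held 222153118 UMIs in 19433 barcodes and the control library 247105192 UMIs in 18538 barcodes. Lum-type cells had a median of 19524 UMIs and 4675 genes in iIRE and of 22362 UMIs and 4912 genes in control, and their summed counts were 20877407 UMIs in iIRE and 24523115 UMIs in control. Mitochondrial UMIs had a median of 1.21% in iIRE members and 1.44% in control members. The libraries shared 458 barcode sequences, of which 1 belonged to a Lum-type cell in both, and 27 members of each library had their sequence somewhere in the other. Levels are given as CPM, the UMIs of a gene per 1000000 UMIs of all cells of a type in a library, and differences as the log2 ratio of CPM + 10, which understates the change of low genes. With 1 library per group there is no replicate check of any difference between iIRE and control, so none was tested, and the 95% intervals below (exact Poisson or Clopper-Pearson) cover counting error only.

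The rule genes describe the cells and are not a finding. Lum was at 497 CPM in iIRE and 464 CPM in control Lum-type cells, against 9.0 and 12.4 CPM in iIRE and control epithelial-type cells. Serpinf1 was at 642 CPM in iIRE and 597 CPM in control Lum-type cells, against 23.6 and 25.1 CPM in epithelial-type cells, and Mfap4 at 174 and 170 CPM, against 3.46 and 3.25 CPM. A UMI of Serpinf1 was present in 96.3% of iIRE and 96.8% of control members, of Lum in 75.6% and 74.1%, and of Mfap4 in 66.2% and 63.2%. Most members thus carried more than the minimum: the sum over the 3 genes had a median of 24 UMIs in each library, with a maximum of 96 in iIRE and 184 in control. Cdkn2a, the tumor suppressor locus that the rule used to mark tumor cells, was at 1031 CPM in iIRE and 999 CPM in control members, and Krt8 and Krt18 made up a median of 0.0327% and 0.0343% of UMIs. In mm10, Lum lies on chromosome 10 at 97565128 to 97572703, Serpinf1 on chromosome 11 at 75409769 to 75422701, Mfap4 on chromosome 11 at 61485431 to 61488900, Acta2 on chromosome 19 at 34241090 to 34255590 and Mest on chromosome 6 at 30723547 to 30748465.

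**Figure D1:**
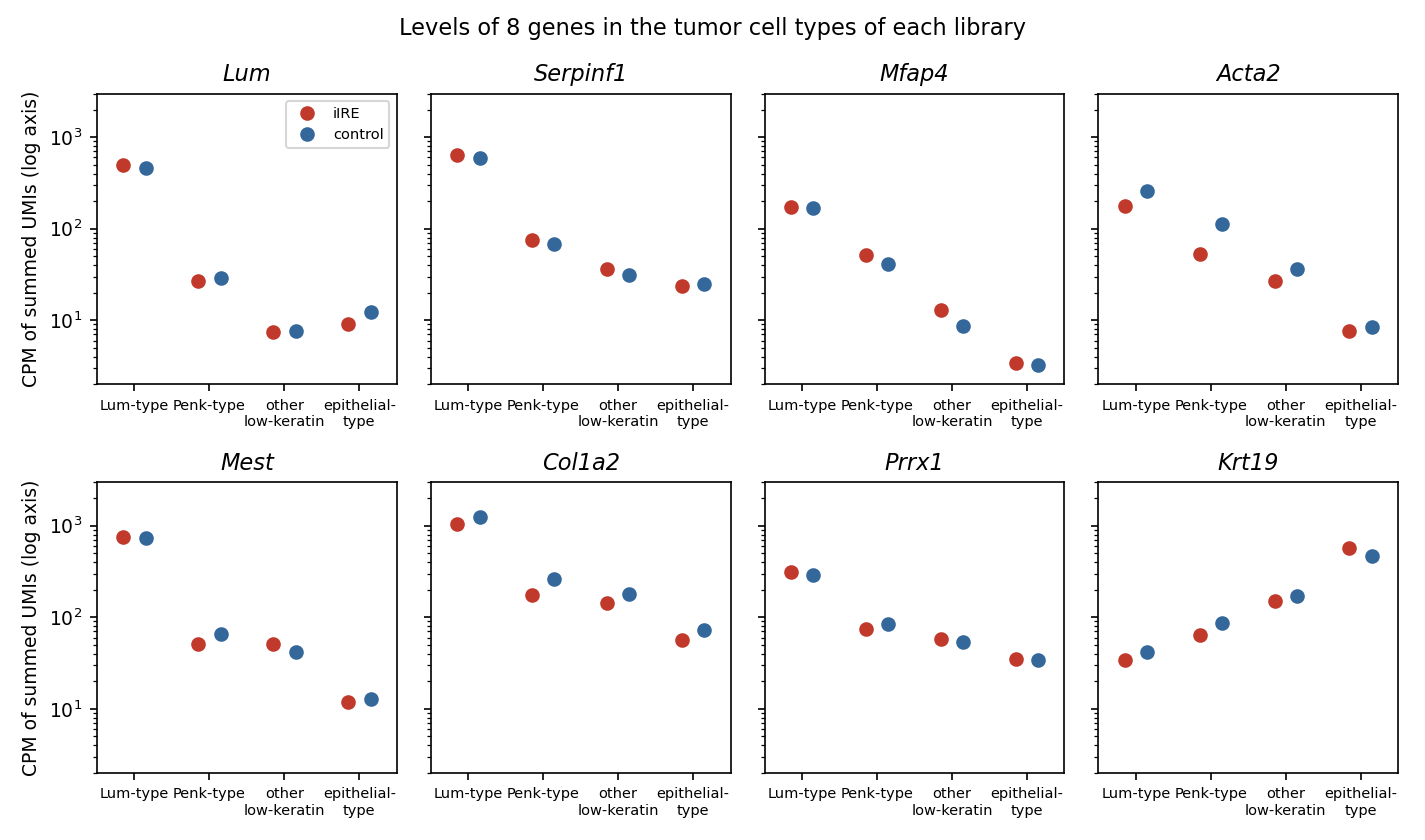
Level of 8 genes (CPM, log axis) in Lum-type, Penk-type, other low-keratin and epithelial-type tumor cells, with iIRE in red and control in blue, 1 point per library. Mest stood at 746 and 734 CPM in Lum-type cells and at 11.9 and 12.9 CPM in epithelial-type cells, while Krt19 stood at 34.0 and 42.0 CPM in Lum-type cells and at 565 and 467 CPM in epithelial-type cells.

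Because the mice were male, Y-linked RNA marks host cells if the injected line lacks it, and the rule did not use it. Over Ddx3y, Eif2s3y, Kdm5d and Uty, Lum-type cells had 2.01 CPM in iIRE and 1.71 CPM in control, and 21 of 969 iIRE and 27 of 1017 control members (2.17% and 2.65%) had any such UMI. Epithelial-type cells had 0.491 and 0.489 CPM. Macrophage-type barcodes, rich in C1q and without Cdkn2a, had 115 CPM in iIRE and 118 CPM in control and carried a Y-linked UMI in 46.2% and 51.0%, at a median of 5662 and 6536 UMIs, fewer than the median of Lum-type cells. The barcodes that met every other part of the rule but had no Cdkn2a UMI, 37 in iIRE and 17 in control, had 112 and 141 CPM of Y-linked RNA. Lum-type cells thus had little of the Y-linked RNA found in host cells that share their marker genes. The sex of the mouse that gave the line is not given in the sources used here.

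Those Cdkn2a-negative barcodes also differed from Lum-type cells in what they made. Mest was at 746 CPM in iIRE and 734 CPM in control Lum-type cells, against 11.4 CPM in the 37 iIRE barcodes and no UMI in the 17 control barcodes, where a count of 0 allows up to 12.4 CPM. Dcn, a proteoglycan of host fibroblasts, was at 321 and 340.0 CPM in Lum-type cells, against 2628 and 2201 CPM in the Cdkn2a-negative barcodes, and Col1a1 at 6777 and 7717 CPM, against 21523 and 24752 CPM. Tagln was at 20.02 and 38.33 CPM in Lum-type cells, against 1635 and 1713 CPM, and Mmp2 at 11.8 and 14.8 CPM, against 831 and 1932 CPM. Of 7 measured markers of host fibroblasts and pericytes, 5 (Pdgfra, Pdgfrb, Pi16, Dpt, Thy1) were nonetheless higher and 1 (Cd34) lower past 2-fold in Lum-type than in epithelial-type cells. Their sum was at 513 CPM in iIRE and 539 CPM in control Lum-type cells and at 1189 and 2325 CPM in the Cdkn2a-negative barcodes. The selection was thinnest at its Cdkn2a edge. The 6 iIRE members with exactly 3 Cdkn2a UMIs had 93.3 CPM of Y-linked RNA and the 9 such control members 16.5 CPM. Those 6 had no Mest UMI and 2674 CPM of Acta2, where the 37 iIRE barcodes without Cdkn2a had 11.4 and 1796 CPM. The 9 control members had 1488.5 CPM of Mest and 238.5 CPM of Acta2. The barcodes just outside with 1 or 2 Cdkn2a UMIs, 17 in iIRE and 15 in control, had 52.5 and 85.8 CPM of Y-linked RNA. Members with 10 or more UMIs over Penk, Fmod and Ccn5 as well, 89 in iIRE and 85 in control, had 14.45 and 8.39 CPM.

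The number of Lum-type cells relative to all tumor cells was alike in the 2 libraries. They made up 13.8% of tumor cells in iIRE (95% interval 13.0 to 14.6%) and 13.5% in control (12.8 to 14.3%), a log2 ratio of 0.03 with an interval of −0.10 to 0.16. The share is set by the cut on a graded sum, and no test across tumors was possible.

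The threshold cut a continuous range. In the members just inside it, with 10 or 11 UMIs over Lum, Serpinf1 and Mfap4 (80 cells in iIRE, 93 in control), Mest was at 327 and 349 CPM, and in the low-keratin tumor cells just outside, with 8 or 9 UMIs (90 and 81 cells), at 327 and 242 CPM. Col1a2 was at 511 CPM in iIRE and 679 CPM in control just inside, and at 518.5 and 746 CPM just outside. Further from the edge the levels differed more: members with 40 or more UMIs over the 3 genes (198 and 244 cells) had 1015 and 1131 CPM of Mest and 1629 and 1795 CPM of Col1a2, against 424 and 413 CPM of Mest and 574 and 908 CPM of Col1a2 in members with 10 to 19 UMIs (356 and 393 cells). Krt19 ran the other way, at 14.4 and 17.9 CPM in the members with 40 or more, against 55.6 and 68.9 CPM in those with 10 to 19. At the keratin edge, the 40 iIRE and 40 control members with 0.2% to 0.25% keratin UMIs had 221 and 388 CPM of Mest, and the 23 iIRE and 25 control cells outside, with 0.25% to 0.3%, had 172 and 214 CPM. At the minimum of 10, Krt19 was at 43.45 CPM in iIRE and 71.8 CPM in control just inside, and at 75.3 and 67.75 CPM just outside. None of Mest, Col1a2 and Krt19 thus had a step along the range in both libraries. Other genes differed at this edge. H19 was at 44.1 and 70.8 CPM inside and 123 and 112 CPM outside, and Acta2 at 96.8 and 142 CPM inside and 80.9 and 322 CPM outside.

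**Figure D2:**
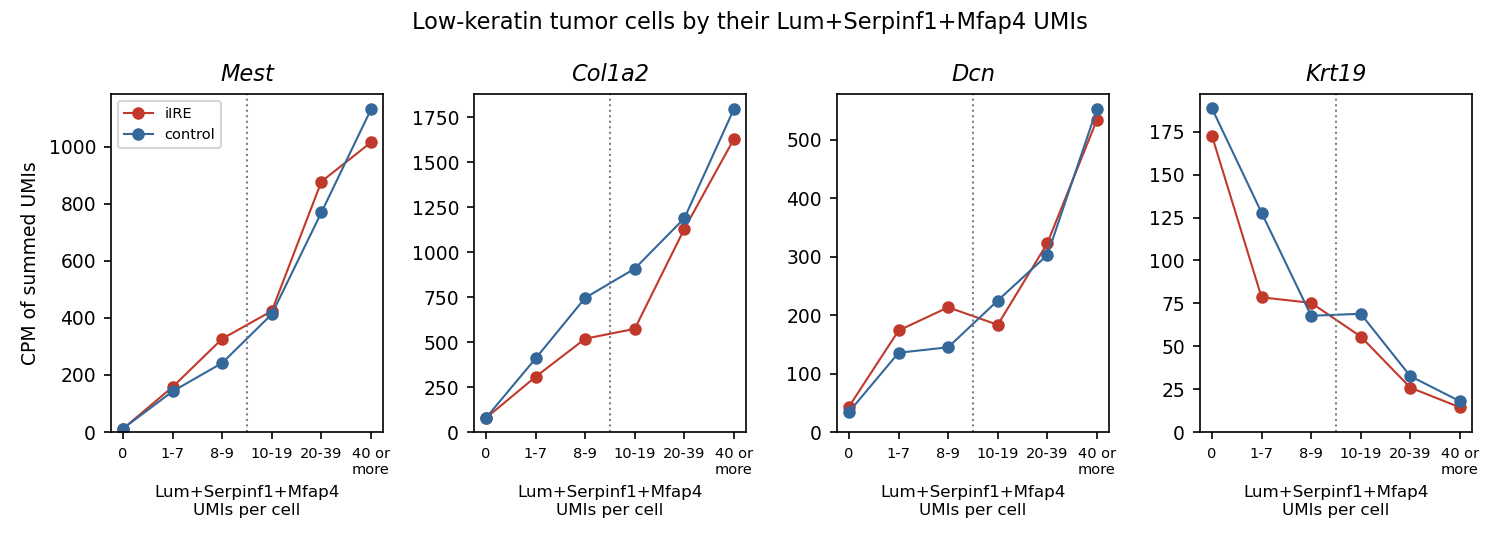
Levels of Mest, Col1a2, Dcn and Krt19 (CPM) in low-keratin tumor cells binned by the sum of Lum, Serpinf1 and Mfap4 UMIs, with iIRE in red and control in blue and a dotted line at the minimum of 10. Dcn stood at 43.5 and 34.5 CPM in cells with a sum of 0 and at 534.5 and 553.5 CPM in cells with 40 or more, and Krt19 at 173 and 189 CPM in cells with a sum of 0.

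Set against epithelial-type cells of the same library, Lum-type cells had higher RNA of fibrillar collagens and of the basement membrane collagens Col4a1 and Col4a2. The contractile genes Acta2, Tagln and Myl9 and the transcription factor Prrx1 were higher too. Tagln had a UMI in only 39 of 969 iIRE and 58 of 1017 control members. Krt19, Krt7, Epcam and other genes of a simple epithelium were lower. The rule chose the 2 sets of cells on this very contrast, so all values here are descriptions and no test was made. Of 14063 genes with enough UMIs, 248 (1.76%) were higher and 153 (1.09%) lower by more than 2-fold in both libraries, with the 12 rule genes left out. The libraries gave like counts, 467 genes past 2-fold in iIRE and 460 in control, and 5 genes had opposite signs.

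Mest had the largest difference of any gene outside the rule. It was at 746 CPM in iIRE and 734 CPM in control Lum-type cells, against 11.9 and 12.9 CPM in epithelial-type cells, a log2 ratio of 5.11 in iIRE and 5.02 in control. A UMI of Mest was found in 61.9% of iIRE and 58.6% of control members when every cell was thinned to 10000 UMIs, against 3.88% and 4.63% of epithelial-type cells and 0.990% and 1.28% of macrophage-type cells (67.2% and 68.0% of members before thinning). Its level varied among members: the tenth of cells with most Mest held 48.1% of its UMIs in iIRE and 49.1% in control, and 102 and 105 cells held 50% of them. H19, another imprinted gene, read from the maternal copy, was at 87.9 and 114 CPM in Lum-type cells, against 5.06 and 7.34 CPM in epithelial-type cells (log2 ratio 2.70 and 2.84). Of 12 measured imprinted genes outside the rule these were the 2 that were higher past 2-fold, and Phlda2, which restrains placental growth, was lower. The promoter of Mest is shown because imprinted expression of this gene is known to go with methylation of CG pairs at its start. The RefSeq sequence (mouse assembly GRCm38.p6, chr6:30737800-30738099, plus strand) covers 250 bases before and 50 after the middle of its 3 listed starts, with each CG in capitals.
Mest promoter: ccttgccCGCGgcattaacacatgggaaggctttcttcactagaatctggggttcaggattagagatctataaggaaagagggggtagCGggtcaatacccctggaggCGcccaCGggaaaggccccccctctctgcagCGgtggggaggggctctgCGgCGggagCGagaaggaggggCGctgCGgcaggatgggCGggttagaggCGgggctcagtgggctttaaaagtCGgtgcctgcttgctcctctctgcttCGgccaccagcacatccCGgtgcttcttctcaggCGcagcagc
It holds 17 CG pairs. Of 32851 RefSeq promoters of this length 31.4% hold as many, and the median is 7.

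The matrix genes that form fibrils were higher almost without exception. Of 13 measured fibrillar and fibril-associated collagens, 12 were past 2-fold in both libraries, with a median log2 ratio over epithelial-type cells of 1.92 in iIRE and 2.28 in control, beside a median of 0.01 and 0.00 over all genes tested. Col1a2, a chain of type I collagen, was at 1043 and 1244 CPM in Lum-type cells, against 56.7 and 73.4 CPM in epithelial-type cells (log2 ratio 3.98 and 3.91). Only Col14a1, which sits on the surface of fibrils, was not past 2-fold, at 0.66 and 0.75. Among 20 measured genes of collagen processing, 6 were higher, among them Loxl1, an enzyme that cross-links elastin and collagen, at 87.5 and 115 CPM, against 6.94 and 8.76 CPM, and Serpinh1, the collagen chaperone of the endoplasmic reticulum, at 1698 and 1757 CPM, against 663 and 665 CPM. No gene of either list was lower past 2-fold.

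Small leucine-rich proteoglycans, the family of lumican itself, were mixed. Of 10 measured outside the rule, 4 were higher: Dcn (321 and 340.0 CPM in Lum-type cells, against 21.4 and 25.1 CPM in epithelial-type cells), Bgn, Ogn and Aspn, with a list median of 0.51 and 0.52. Bgn, which binds collagen and growth factors, was at 812 and 1011 CPM, against 249 and 270 CPM. Of 15 elastic fiber and microfibril genes 5 were higher, among them Fbn1, the main microfibril protein, at 476 and 524.5 CPM, against 99.6 and 101 CPM. Of 14 matricellular genes, which encode secreted proteins that act on cells through the matrix, 4 were higher, with Tnc at 480.3 and 527 CPM, against 44.8 and 41.1 CPM, and Thbs2 at 204 and 221 CPM, against 17.5 and 16.9 CPM. Spp1 (osteopontin), the most abundant of them, was at 10004 and 8508 CPM in Lum-type cells, against 6409 and 5700 CPM in epithelial-type cells (log2 ratio 0.64 and 0.58), and Fn1 at 3835 and 4786 CPM, against 2950 and 3025 CPM.

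Of 18 measured basement membrane genes, 5 were higher, 1 was lower and 12 did not pass 2-fold in both libraries. Col4a1, a chain of the type IV collagen network, was at 512 and 487 CPM in Lum-type cells, against 58.3 and 56.7 CPM in epithelial-type cells (log2 ratio 2.93 and 2.90), and its partner Col4a2 at 213 and 212 CPM, against 23.9 and 23.5 CPM. Lama4, the laminin chain of mesenchymal and vascular basement membranes, was also higher, while Lama5, the laminin chain of epithelial basement membranes, was at 18.8 and 23.4 CPM, against 83.4 and 76.5 CPM (log2 ratio −1.70 and −1.37). Col7a1, the anchoring fibril collagen of epithelial basement membranes, had ratios of 0.86 and 1.04. Itgb4, the integrin that anchors epithelial cells to laminin, was at 11.3 and 14.6 CPM, against 168 and 161 CPM.

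Of 21 measured epithelial genes outside the rule, 8 were lower and none higher past 2-fold, with a list median of −0.75 in iIRE and −0.78 in control. Krt19, a keratin of duct cells, was at 34.0 and 42.0 CPM in Lum-type cells, against 565 and 467 CPM in epithelial-type cells, and Krt7 at 1.10 and 2.00 CPM, against 97.6 and 79.4 CPM. Epcam, an adhesion protein of epithelia, was at 6.13 and 3.18 CPM, against 37.4 and 25.9 CPM. Cdh1 (E-cadherin) was at 0.144 and 0.408 CPM in Lum-type cells and low in epithelial-type cells too, at 10.1 and 8.90 CPM. Other genes with the largest negative ratios were Msln (mesothelin), Lgals4 and Lgals2 (galectins), Slurp1, Clu (clusterin), Aqp5 (a water channel) and Sema3c, with log2 ratios between −2.39 and −3.31 in either library.

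The mesenchymal list was not uniform. Of 15 measured genes 7 were higher and 1 lower, with a median of 0.99 in iIRE and 1.19 in control. Fstl1 was at 460 and 453 CPM in Lum-type cells, against 30.8 and 33.0 CPM in epithelial-type cells, the growth factor receptor gene Pdgfra at 108 and 101 CPM, against 6.78 and 6.25 CPM, and Pdgfrb at 262 and 263 CPM, against 33.3 and 35.9 CPM. S100a4, long used as a fibroblast marker, was the member that was lower, at 237 and 216 CPM, against 1069 and 1183 CPM. Vim (vimentin), the intermediate filament of mesenchymal cells, was high in both and lower in Lum-type cells without passing 2-fold, at 6204 and 5992 CPM, against 9208 and 8694 CPM, and the log2 ratio of Cdh2 (N-cadherin) was −0.87 and −0.62. Axl and Ncam1 were also below 0 in each library, between −0.08 and −0.22, so 5 of the 15 ran against the direction of the list.

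Of 8 measured transcription factors of epithelial-mesenchymal transition, 4 were higher past 2-fold. Prrx1, a homeobox factor of limb and head mesenchyme, was at 310 and 292 CPM in Lum-type cells, against 35.3 and 33.7 CPM in epithelial-type cells (log2 ratio 2.82 and 2.79), and 95.6% of iIRE and 96.2% of control members had a UMI of it. Zeb1 was at 117 and 114 CPM, against 43.9 and 45.9 CPM, Snai1 at 105 and 93.3 CPM, against 46.6 and 39.3 CPM, and Tcf4, was higher too. Twist1 stayed just short of 2-fold, at 0.96 and 0.91. None of 11 pancreas lineage factors passed 2-fold in either direction: Sox9, a factor of duct and progenitor cells, was at 483 and 491 CPM in Lum-type cells, against 439 and 424 CPM in epithelial-type cells, and Pdx1, the gene whose promoter drove Cre in the mouse of origin, at 8.57 and 9.34 CPM, against 19.5 and 17.5 CPM.

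**Figure D3:**
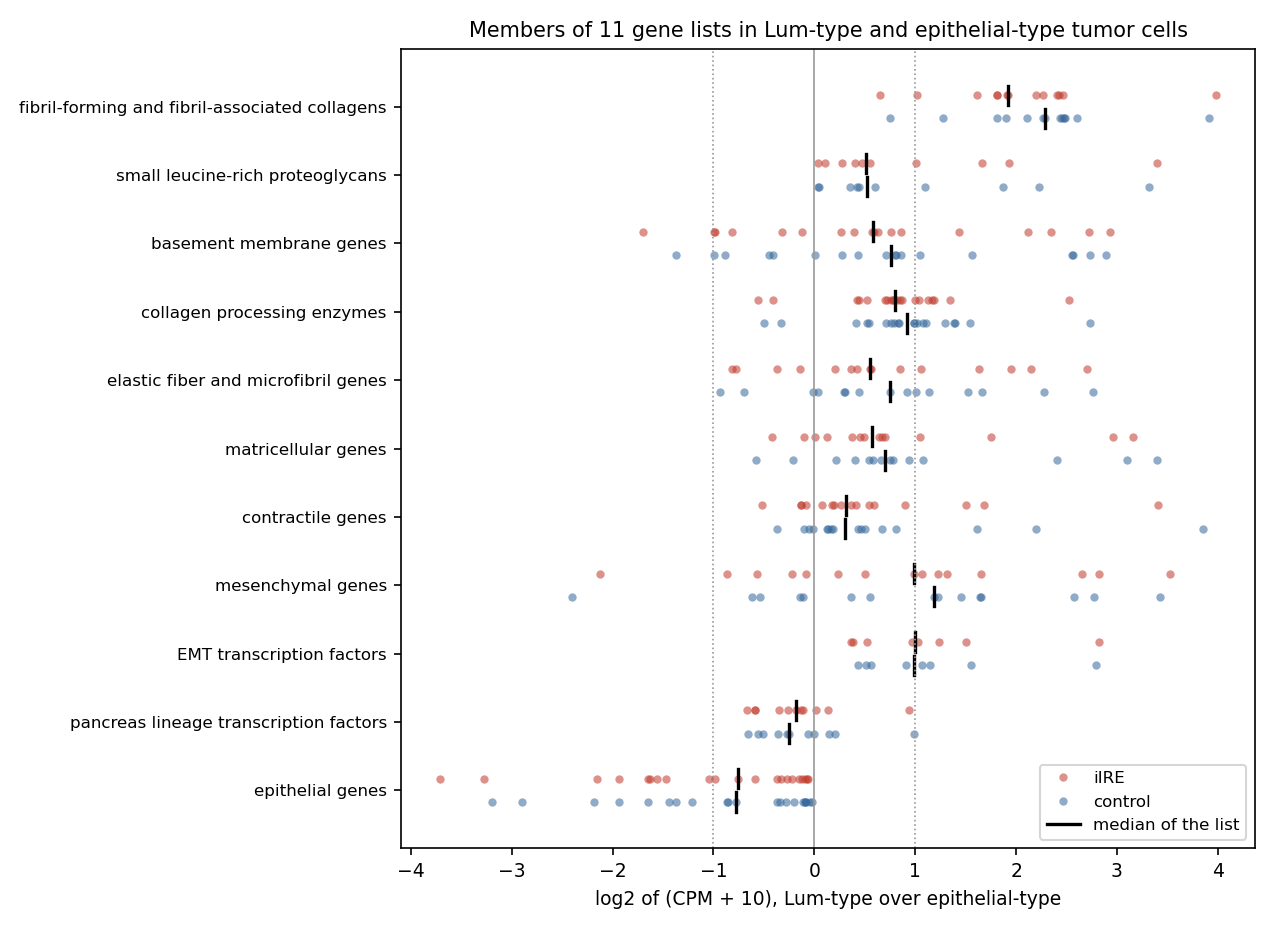
Log2 ratio of Lum-type over epithelial-type cells for the members of 11 gene lists, iIRE row above control row in each list, 1 dot per gene, the black bar at the list median and dotted lines at 2-fold either way. Fibrillar collagens had medians of 1.92 and 2.28, and epithelial genes had medians of −0.75 and −0.78.

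Among signaling genes, a few members of each pathway stood apart. In the TGF-beta list 3 of 14 were higher, among them Tgfb2, a ligand, at 113 and 99.4 CPM in Lum-type cells, against 15.0 and 12.5 CPM in epithelial-type cells, and Tgfbr1, a receptor. In the Wnt list none of 17 was higher and Wnt7b, a ligand of epithelia, was lower at −1.07 in each library. Of 18 cytokines and chemokines 4 were higher: Ccl2, which draws monocytes, at 208 and 183 CPM, against 24.7 and 32.6 CPM, Ccl7, which acts on the same receptor, and Cxcl1 and Cxcl2, which draw neutrophils, with Cxcl1 at 1269 and 1247 CPM, against 476 and 497 CPM. Ccl2 was uneven among members, with a UMI in 21.9% of iIRE and 22.6% of control members and 91.6% and 92.9% of its UMIs in the tenth of cells with most. Macrophage-type cells had a UMI of Ccl2 in 86.1% and 85.9% after thinning to 10000 UMIs. The part of macrophage RNA in the Ccl2 level of Lum-type cells was not tested.

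Serpine2, a secreted protease inhibitor, and Mgp, an inhibitor of calcification in the matrix, were among the genes with the largest ratios. Serpine2 was at 775 and 671 CPM in Lum-type cells, against 60.9 and 50.5 CPM in epithelial-type cells, and Mgp at 1237 and 1093 CPM, against 139 and 114 CPM. In the BMP list 2 of 11 were higher, Fstl1 and Id3, a target gene and inhibitor of helix-loop-helix factors, at 419.9 and 339.9 CPM, against 106 and 85.8 CPM. Of 12 metalloproteinases and inhibitors 3 were higher, with Mmp14, a membrane protease that activates Mmp2, at 425 and 577 CPM, against 128 and 176 CPM. Among 20 immediate-early genes, which respond fast to stimuli and to tissue handling, Egr2, Nr4a1 and Btg2 were higher and Atf3 lower, at 272 and 269.8 CPM, against 565 and 581 CPM. Of 16 contractile genes Acta2, Tagln and Myl9 were higher, and the list median was 0.31 in each library. The Tagln level rests on few cells, since 10 cells held 76.6% of its UMIs in iIRE and 76.0% in control. Of 11 genes of MHC class I presentation, Psmb8, a subunit of the immunoproteasome, was higher, at 61.0 and 48.6 CPM, against 15.5 and 12.4 CPM, and H2-D1 was lower, at 26.5 and 25.7 CPM, against 63.4 and 66.1 CPM. No member of the hypoxia (15), glycolysis (12), p53 pathway (12), endoplasmic reticulum stress (16) or cell cycle (32) lists passed 2-fold in both libraries.

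Penk-type cells are the other matrix-rich, low-keratin tumor cells. The rule again chose both sets, on Lum, Serpinf1 and Mfap4 against Penk, Fmod and Ccn5. Of 12631 genes, 53 (0.42%) were higher and 50 (0.396%) lower in Lum-type cells by more than 2-fold in both libraries. Only 2 of 13 collagens were among the higher genes, and the list median was 0.46 in iIRE and 0.51 in control. Mest again had the largest ratio, at 746 and 734 CPM in Lum-type cells, against 51.2 and 65.0 CPM in Penk-type cells (log2 ratio 3.63 and 3.31), followed by Col1a2 at 1043 and 1244 CPM, against 177 and 260.1 CPM. Mrc2, a receptor that takes up collagen, Lama4, Ccl7, Prrx1, Cst6, a protease inhibitor, and Sept4 had log2 ratios between 1.64 and 2.23 in either library. On the lower side, Bcam, a laminin receptor, was at 20.2 and 21.3 CPM, against 110.0 and 114 CPM, and Tspan8, a tetraspanin, at 45.7 and 46.5 CPM, against 200.1 and 213 CPM. Prelp, a proteoglycan of the lumican family that the rule did not use, was lower too, at 73.1 and 76.4 CPM, against 216 and 229 CPM. Acta2 was at 178 and 257 CPM in Lum-type cells, against 52.4 and 113 CPM in Penk-type cells.

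Acta2 was expressed by a minority of Lum-type cells. It was at 178 CPM in iIRE and 257 CPM in control Lum-type cells, against 7.69 and 8.54 CPM in epithelial-type cells, yet after thinning to 10000 UMIs 25.1% of iIRE and 28.6% of control members had a UMI, against 2.97% and 5.13% of macrophage-type cells. In each library 36 cells held 50% of its UMIs, and the tenth of cells with most held 80.6% in iIRE and 83.1% in control. The cut used next is a point on this range: members with at least 5 UMIs of Acta2 (159 in iIRE, 192 in control) were set against those with none (675 and 667), and those with 1 to 4 were left out. Of 11742 genes, 11 were higher and 7 lower by more than 2-fold in both libraries. The higher genes began with the contractile genes Tagln, at 108 CPM with Acta2 and 1.80 CPM without in iIRE and at 166 and 5.28 CPM in control, and Myl9, at 140 and 15.3 CPM in iIRE and 155 and 16.1 CPM in control. Postn, a matrix protein of myofibroblasts, Meox1, a homeobox factor, and Palld, which binds actin, followed, and Bmp2, Apod, Cxcl5 and Ecrg4 were among the lower genes. Among all members, a UMI of Tagln was found in only 39 iIRE and 58 control cells, and 10 cells held 76.6% and 76.0% of its UMIs. For Postn, 10 cells held 74.6% in iIRE and 73.8% in control, so the ratios of these genes rest on few cells.

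Lum itself was lower in the cells with Acta2, at 289 CPM with and 561 CPM without in iIRE and at 186 and 566 CPM in control. The cells with Acta2 had more Y-linked RNA, 7.20 CPM against 0.829 CPM without in iIRE and 3.33 CPM against 1.26 CPM in control. The Cdkn2a-negative barcodes had 112 and 141 CPM of it. A Y-linked UMI was present in 10 of the 159 iIRE and 11 of the 192 control cells with Acta2. Their summed macrophage markers were at 185 CPM against 69.7 CPM in iIRE and 79.2 CPM against 39.4 CPM in control. How far RNA of other cells enters the Acta2 contrast was not tested.

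Mest was about as common in the cells with Acta2 as in all members. Of the cells with at least 5 UMIs of Acta2, 36.5% in iIRE and 35.4% in control had at least 10 UMIs of Mest, close to the 38.9% and 38.5% of all members. Set against the members without Mest (318 in iIRE, 325 in control), those with at least 10 UMIs (377 and 391) had 24 genes higher and 29 lower of 11502 past 2-fold in both libraries, and members with 1 to 9 UMIs were left out. Among the higher were Sept4, Itga8, an integrin subunit of mesenchyme, Cygb, and Fbln1, a protein of elastic fibers and basement membranes, at 877 CPM with Mest and 363 CPM without in iIRE and at 640 and 264 CPM in control. Among the lower were Itm2a, at log2 ratios of −3.01 and −2.44, Mmp2, a protease that cuts type IV collagen, at −2.12 and −2.17, Postn, Tagln, Hmga1, the neutrophil gene S100a9, at −2.51 and −3.87, and S100a4, at 114 CPM with Mest and 380.3 CPM without in iIRE and at 122 and 340.3 CPM in control. The glycolysis list had a median of −0.39 in iIRE and −0.65 in control, and the hypoxia list −0.31 and −0.66. The cells with Mest had less Y-linked RNA, 1.07 CPM against 4.06 CPM without in iIRE and 0.223 CPM against 3.52 CPM in control. Their summed neutrophil markers were at 4.96 CPM against 114 CPM in iIRE and 1.11 CPM against 220.0 CPM in control. Among all members, 1 cell held 344 of the 478 UMIs of S100a9 in iIRE, and 1 cell held 1043 of 1164 in control. The part of RNA of other cells in the Mest contrast was not tested.

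Within 500 kb either side of Mest, 11 genes had enough UMIs, and besides Mest the 2 that were higher past 2-fold in the cells with Mest were Copg2 and Klhdc10. Copg2, a coat protein gene of the Golgi, was at 178 CPM with Mest and 28.2 CPM without in iIRE and at 191 and 26.1 CPM in control. It lies on the opposite strand (chromosome 6, 30747554 to 30896794) and overlaps Mest only up to 30748465. The sources used here do not say whether counting used strand, so reads within this overlap cannot be told from those of Mest. Their part in the Copg2 level was not tested. Klhdc10 lies 268 kb away on the same strand as Mest (30401868 to 30455179) and was at 111 and 37.1 CPM in iIRE and 129 and 29.8 CPM in control. Tmem209, Cep41 and Zc3hc1, which lie between or beside them, had log2 ratios of 0.14 to 0.37. Cpa4, 131 kb from Mest and low, was at 5.22 CPM with Mest and 0.280 CPM without in iIRE and at 6.35 and 0.502 CPM in control (log2 ratio 0.57 and 0.64), and Cpa1, a gene of acinar cells, was at −1.48 and 0.10.

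A larger share of Lum-type cells was dividing in the iIRE library than in the control library. A cell was counted as dividing with at least 5 UMIs over 10 genes of the late cell cycle (Mki67, Top2a, Cenpf, Hmmr, Ube2c, Tpx2, Nusap1, Prc1, Cdk1, Ccnb1). By this count 44.0% of iIRE Lum-type cells (426 of 969, interval 40.8 to 47.1%) and 34.9% of control Lum-type cells (355 of 1017, interval 32.0 to 37.9%) were dividing, a log2 ratio of 0.33 with an interval of 0.13 to 0.54. Control cells were deeper, and with every cell thinned to 10000 UMIs the shares were 37.7% in iIRE and 28.7% in control, a log2 ratio of 0.39 (0.17 to 0.62). All cells were then left out that had 3 or more UMIs of immune, endothelial and acinar markers or any Y-linked UMI. Cells with fewer marker UMIs stayed in, and fibroblast markers were not used. Endothelial markers alone reached 3 UMIs in 26.1% of iIRE and 31.4% of control members, and in 39.4% of epithelial-type cells of each library. The 498 iIRE and 512 control members that remained are called members without RNA of other cell types below. Of them, 34.3% and 26.9% were dividing. Epithelial-type cells were at 49.1% in iIRE and 48.2% in control (log2 ratio 0.03, interval −0.09 to 0.14), Penk-type cells at 14.6% and 16.2% (−0.15, interval −0.59 to 0.28), and other low-keratin cells at 37.8% (iIRE) and 37.7% (control). Whether the iIRE to control difference of Lum-type cells is unlike that of the other types was not tested, since each type gives 1 value per library.

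**Figure D4:**
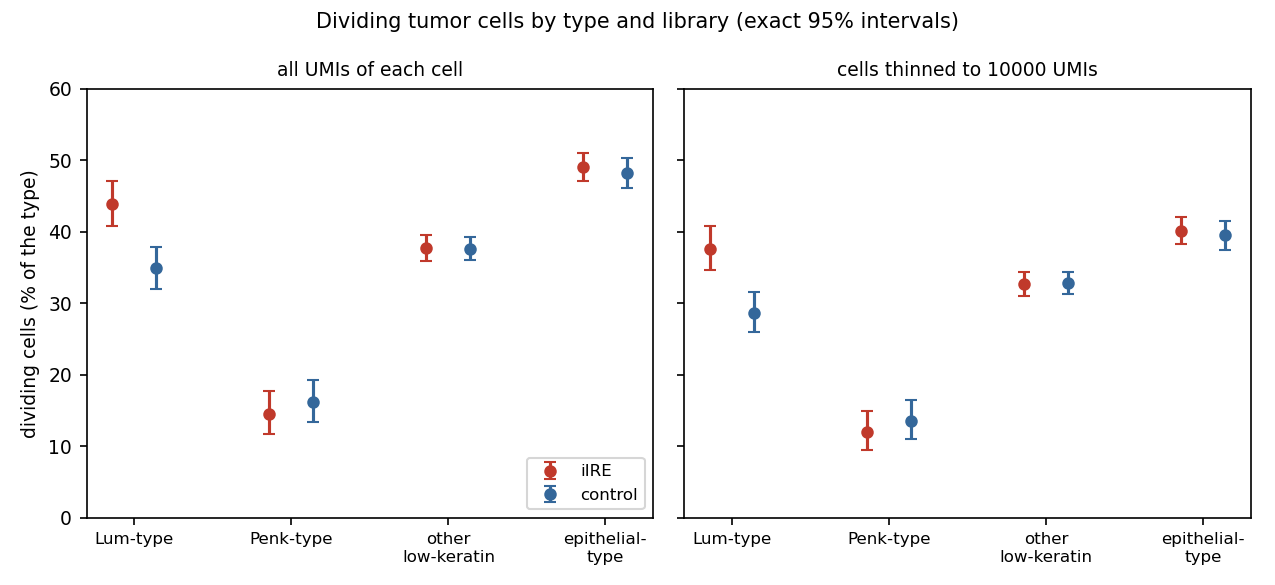
Dividing cells as a percentage of each tumor cell type, with iIRE in red and control in blue and exact 95% intervals, from all UMIs and after thinning each cell to 10000 UMIs. Lum-type cells stood at 44.0% and 34.9% from all UMIs and at 37.7% and 28.7% after thinning, where epithelial-type cells stood at 40.2% and 39.5%.

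Dividing and non-dividing members differed in more than cell cycle genes. Besides 232 genes that were higher past 2-fold in both libraries in the dividing members, 12 were lower. Col4a1 was at 298 CPM in dividing and 759 CPM in non-dividing members of iIRE and at 287 and 645 CPM in control. Mgp, H19, Apod and Lbp were also lower in dividing members, with log2 ratios between −1.02 and −1.68. Dividing cells were deeper, with a median of 25459.5 UMIs against 17061 in iIRE and 29305 against 20082.5 in control, and they were called by UMI counts, so depth and the call move together.

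The iIRE and control libraries differed in few genes of Lum-type cells, and mostly by less than 2-fold. Of 11959 genes, 294 (2.46%) were higher and 225 (1.88%) lower in iIRE by more than 1.2-fold with a counting interval that did not include equal levels, and 7 and 1 of them passed 2-fold. The median over all genes was 0.00. Of the 519 genes, 86 also differed by more than 1.2-fold the same way in epithelial-type cells. How many of all genes passed 1.2-fold in epithelial-type cells was not counted, so nothing is read from this overlap. The largest ratios of abundant genes that all tumor cell types had in common belonged to Pabpc1, the poly(A)-binding protein, at 600 CPM in iIRE and 262 CPM in control Lum-type cells and at 672 and 258 CPM in epithelial-type cells, and, on the lower side, to Tma7, at 113 and 210 CPM in Lum-type cells and 127 and 241 CPM in epithelial-type cells. Bc1, a short RNA of neurons, had 10.2 and 0.0816 CPM in Lum-type cells and 13.9 and 0.126 CPM in epithelial-type cells, and its control level rests on 2 UMIs, with a log2 interval of the CPM ratio of 5.09 to 10.0. Library preparation and group cannot be told apart with 1 library each.

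Interferon-stimulated genes were higher in the iIRE library in Lum-type cells. Of 22 measured, 14 were higher past 1.2-fold and none lower, with a median log2 ratio of 0.30, beside 0.22 in Penk-type and 0.06 in epithelial-type cells. Isg15, a ubiquitin-like antiviral protein, was at 134 CPM in iIRE and 70.6 CPM in control Lum-type cells (log2 ratio 0.83, and 0.83 to 1.01 as the interval of the CPM ratio without the added 10) and at 55.8 and 45.4 CPM in epithelial-type cells. Rtp4 was at 11.7 and 4.49 CPM, Oasl2 at 34.3 and 21.9 CPM, and Bst2, which tethers budding viruses, at 211 and 163 CPM. Ifi27 was higher alike in epithelial-type cells, with a log2 ratio of 0.35 in Lum-type and 0.34 in epithelial-type cells. The higher level was found in dividing members, where Isg15 was at 141 CPM in iIRE and 69.0 CPM in control, and in non-dividing members, at 126 and 71.8 CPM. Macrophage-type cells also carried Isg15, and summed macrophage markers in Lum-type cells were at 90.2 CPM in iIRE and 49.3 CPM in control, all 10 markers having a UMI in each, with 56.3% and 40.3% of these UMIs in 10 cells. In the 498 iIRE and 512 control members without RNA of other cell types, as chosen for the dividing share, the list median was 0.31 and the log2 ratio of Isg15 0.86. The promoter of Isg15 is shown because interferon acts through the element GAAANNGAAA, named here after the values were seen, with its matches in capitals (RefSeq, GRCm38.p6, chr4:156200769-156201068, minus strand, 250 bases before and 50 after the start).
Isg15 promoter: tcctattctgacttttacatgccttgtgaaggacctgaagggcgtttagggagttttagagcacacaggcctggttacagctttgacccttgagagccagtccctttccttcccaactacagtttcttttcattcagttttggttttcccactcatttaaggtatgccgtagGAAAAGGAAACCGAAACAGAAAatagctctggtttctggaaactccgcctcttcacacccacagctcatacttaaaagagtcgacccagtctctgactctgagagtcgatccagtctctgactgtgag
Searched on both strands, it holds 3 overlapping matches, as many as 0.0152% of all promoters, while 3.44% hold at least 1. Of the 22 measured interferon-stimulated genes 17 were in the promoter table, and 7 of these (41.2%) had a match, against 3.99% of all 27025 symbols. The list was made of known interferon-stimulated genes, so this share describes the list and not the difference between the libraries.

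Cell cycle genes also had higher levels in iIRE, which is no separate readout from the dividing share, since all 10 genes of that call are among them. Of 32 measured, 15 were higher past 1.2-fold and none lower, with a median of 0.26 in Lum-type cells, −0.11 in Penk-type cells and −0.01 in epithelial-type cells. Ube2c, which drives mitotic exit, was at 279 CPM in iIRE and 165 CPM in control Lum-type cells and at 346 and 325 CPM in epithelial-type cells, and Cenpa, the centromere histone, at 152 and 85.8 CPM in Lum-type cells and 148 and 141 CPM in epithelial-type cells. Cdc20 was at 51.5 and 27.8 CPM and Cenpf at 95.8 and 56.3 CPM. The genes of DNA replication, Mcm2 to Mcm7 and Pcna, lay between −0.08 and 0.05, while the higher genes named here act in mitosis. The list median was −0.14 among the dividing members and 0.10 among the others. Of the marker lists of other cell types, 4 of 5 measured acinar markers and 3 of 6 macrophage markers were higher in iIRE and none lower, with medians of 0.45 and 0.31.

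Ankrd1 and Ccn2, which respond to the mechanical regulators Yap and Taz, were lower in iIRE. Ankrd1 was at 51.4 CPM in iIRE and 97.9 CPM in control Lum-type cells (log2 ratio −0.81, interval of the CPM ratio −1.04 to −0.83) and at 114 and 133 CPM in epithelial-type cells. It was lower alike in dividing members, at 50.1 and 98.3 CPM, and in non-dividing members, at 52.9 and 97.6 CPM, and a UMI was present in 34.4% of iIRE and 41.2% of control members. Ccn2, a matricellular protein, was at 216 and 330.4 CPM in Lum-type cells and 233 and 283 CPM in epithelial-type cells. Its log2 ratio was −0.59, and −0.83 in dividing and −0.35 in non-dividing members. In the 498 iIRE and 512 control members without RNA of other cell types the log2 ratios were smaller, −0.44 for Ankrd1 and −0.36 for Ccn2. Ccn1, another matricellular gene, was at 1566 CPM in iIRE and 1797 CPM in control Lum-type cells. No list of Yap and Taz target genes was measured, so these genes do not stand for the pathway. The promoter of Ankrd1 is shown because Yap and Taz act through TEAD factors, whose known core is GGAATG, chosen here after the values were seen and set in capitals (RefSeq, GRCm38.p6, chr19:36119795-36120094, minus strand, 250 bases before and 50 after the start).
Ankrd1 promoter: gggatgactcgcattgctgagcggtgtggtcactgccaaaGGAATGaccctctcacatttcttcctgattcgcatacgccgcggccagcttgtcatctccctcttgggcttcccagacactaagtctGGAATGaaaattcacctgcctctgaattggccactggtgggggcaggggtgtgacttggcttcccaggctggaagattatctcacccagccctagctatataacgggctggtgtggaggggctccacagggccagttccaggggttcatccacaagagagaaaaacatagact
Searched on both strands, it holds 2 matches, as many as 1.36% of all promoters, while 14.7% hold at least 1.

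Some matrix and contractile genes were lower in iIRE within Lum-type cells. Of 13 collagens none was higher and 3 were lower past 1.2-fold, with a list median of −0.19 in Lum-type cells, −0.06 in Penk-type cells and 0.02 in epithelial-type cells. Col5a1, which starts the fibrils of type I collagen, was at 869 CPM in iIRE and 1109 CPM in control, and the log2 ratios of Col5a2 and Col12a1 were −0.32 and −0.45. The collagen median was 0.10 in members with at least 5 UMIs of Acta2 and −0.28 in those with none, and −0.04 in dividing and −0.20 in other members. Of 14 matricellular genes 5 were lower and 1, Tgfbi, higher, and of 15 elastic fiber genes 3 were lower and 1, Fbln1, higher, at 570.2 and 431 CPM. Of 15 measured contractile genes 2 were lower and none higher. Acta2 was at 178 CPM in iIRE and 257 CPM in control, and Tagln, which is in few cells, at 20.02 and 38.33 CPM. The log2 ratio of Acta2 was −0.51, and −0.24 in the members without RNA of other cell types. Mest was at 746 CPM in iIRE and 734 CPM in control. None of the 8 measured transcription factors of epithelial-mesenchymal transition passed 1.2-fold.

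A few glycolysis and hypoxia genes differed between the libraries. Aldoa, an enzyme of glycolysis, was at 855 CPM in iIRE and 1131 CPM in control Lum-type cells, and of 12 glycolysis genes 2 were lower and none higher, with a median of −0.17, beside 0.00 in epithelial-type cells. Of 15 hypoxia genes 1 was higher, Ddit4, an inhibitor of mTOR signaling, at 114 and 86.0 CPM, and 1 lower. Bnip3, the lower gene, a target of hypoxia factors that acts in mitophagy, was at 111 and 159 CPM in Lum-type cells, with a log2 ratio of −0.48 there and −0.02 in epithelial-type cells. Ero1l, an oxidase of the endoplasmic reticulum, was lower too, at 84.9 and 148 CPM in Lum-type cells. The hypoxia list held this gene under the symbol Ero1a, which was not found, so it is not among the 15 counted. Sprr2k was at 196 and 332 CPM in Lum-type cells, and 214 and 198 CPM in epithelial-type cells. Apod, a lipid-binding lipocalin, was higher in iIRE, at 71.4 and 32.7 CPM in Lum-type cells and 0.444 and 0.710 CPM in epithelial-type cells. It was at 33.7 CPM in iIRE and 15.4 CPM in control dividing members and at 115 and 46.5 CPM in non-dividing members.

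**Figure D5:**
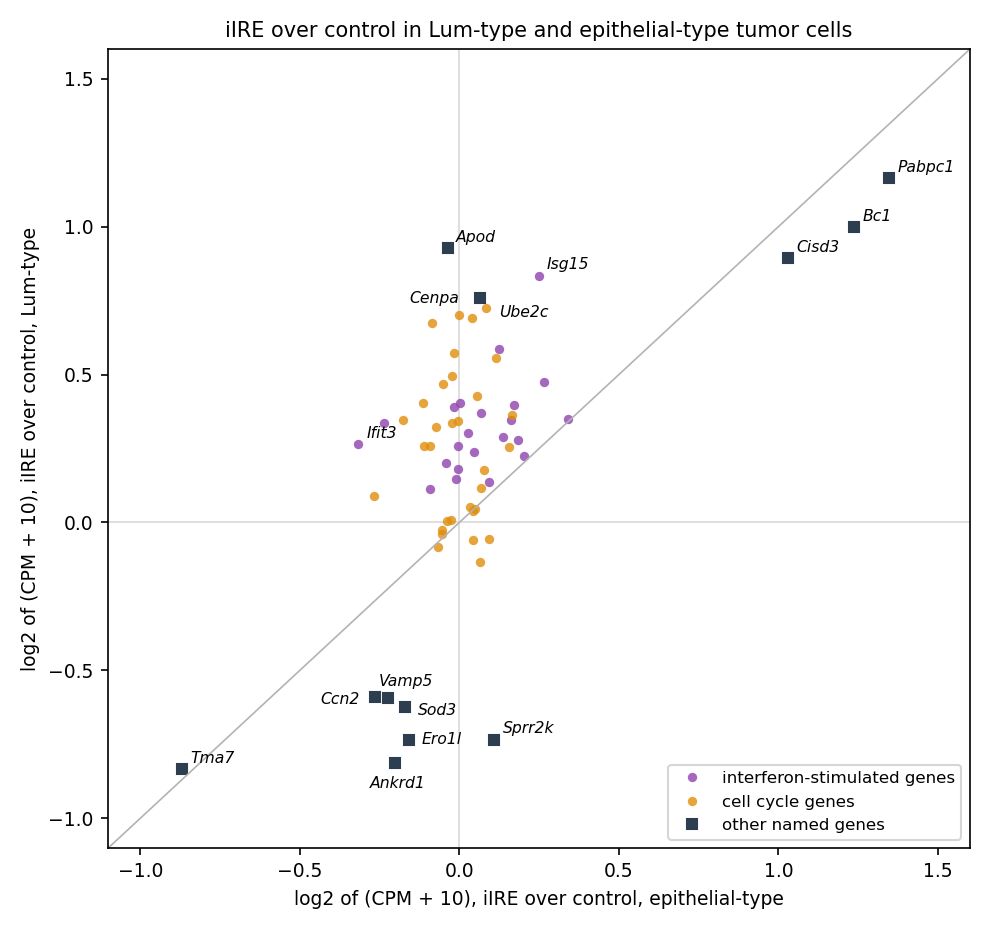
Log2 ratio of iIRE over control in Lum-type cells (vertical axis) against epithelial-type cells (horizontal axis) for 22 interferon-stimulated genes, 32 cell cycle genes and other named genes, 1 dot per gene, with the diagonal marking equal ratios. Pabpc1 (1.16 and 1.35) and Tma7 (−0.83 and −0.87) lie near the diagonal, while Isg15 (0.83 and 0.25) and Ankrd1 (−0.81 and −0.20) lie away from it.

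Some of the largest ratios came from single cells. Try5, Ctrb1 and Prss2, digestive enzymes of acinar cells, were at 58.6, 77.0 and 50.6 CPM in iIRE and 5.79, 10.9 and 7.34 CPM in control Lum-type cells, and 1 iIRE cell held 50% of the UMIs of each. In the members without RNA of other cell types their log2 ratios were 0.18, 0.32 and 0.16, against 2.12, 2.06 and 1.80 in all members. Summed acinar markers were at 154 CPM in iIRE and 34.1 CPM in control, all 7 having a UMI in each, and 10 cells held 80.6% and 58.3% of them. Neutrophil markers were at 43.3 and 72.6 CPM, with 97.6% and 99.5% in 10 cells. Endothelial markers were at 83.2 CPM in iIRE, where Cldn5 had no UMI, and 90.3 CPM in control, and at 104.5 and 90.3 CPM in epithelial-type cells. Of 7 markers of T and NK cells, Cd3d, Cd3e, Cd3g, Nkg7 and Cd8a had no UMI in iIRE and Cd8a none in control, and Sox10 of Schwann cells and Upk3b and Lrrn4 of mesothelium had none in either, where a count of 0 allows up to 0.144 CPM in iIRE and 0.122 CPM in control.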

How the data were processed

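The deposited matrix holds UMI counts, raw and not normalized, for 32285 features (32235 with an identifier in GENCODE vM21) in 37971 barcodes of 2 libraries, 1 iIRE and 1 control; the authors made it with Cell Ranger (cellranger 7.0.1 per the file header) on mm10, with STAR named in the submitters' notes. The barcode ending gives the library. The members and gene lists (38) were chosen with earlier results of these data known. Counts were summed per cell type and library (Python 3.11.15, numpy 2.4.6, scipy 1.17.1, pandas 2.3.3). Genes with at least 50 UMIs over the compared sums were kept, and log2 ratios of CPM + 10 computed. A gene passed between types at 2-fold in both libraries and between libraries at 1.2-fold with a 95% counting interval off 0. No test across samples was possible, since each group has 1 library. The scripts were tested on simulated data. Named genes were the markers, the rule genes, the genes with the largest ratios (12 and 12 over epithelial-type, 8 and 8 over Penk-type, 10 and 10 between libraries, with a UMI in at least 10% of cells), and list members by level or past 2-fold; others were named after their values were seen. Doublets were not removed for the values given; as an alternative, 8% of barcodes with the highest simulated-doublet score (scikit-learn 1.9.0) were left out. Over 10 other settings and 3 added after seeing the data, changes were made to the selection, pseudocount, filter, thinning and cells left out.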

Additional observations from a re-analysis of the deposited data

Results flagged for a closer look

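Only the named genes, not all genes measured, were searched for ratios that differ in direction between cell types. In 7 of them the iIRE to control ratio ran in opposite directions, past 1.2-fold in each, in Lum-type and epithelial-type cells. The difference was not tested, as each type gives 1 value per library. The log2 ratios in Lum-type and epithelial-type cells were 2.12 and −0.60 for Try5 and 2.06 and −0.74 for Ctrb1, both acinar enzymes, 1.07 and −0.40 for Lyz2 and 0.68 and −0.31 for Tyrobp, both macrophage genes, 0.27 and −0.32 for Ifit3 and 0.46 and −0.39 for Cxcl10, both induced by interferon, and −0.50 and 0.30 for Ccl5, a chemokine. In Lum-type cells of iIRE, 1 cell held 50% of the UMIs of Try5 and of Ctrb1, and 2 cells held 50% of those of Lyz2.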

How the results depend on the processing

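No paired analysis was possible because each group has 1 library. Over 10 other settings and 3 chosen after seeing the data, 864 values of single genes and 716 list values were compared with those reported. A change of direction was counted only where the reported value was itself past the fold. By this count 3 gene values and 4 list values changed direction. Changes of sign in smaller values were not counted. Of the gene values 633 moved by less than their counting interval, and 681 of the list values kept their side of the fold. With dividing cells left out, the iIRE over control log2 ratio was −0.35 for Ctrb1, −0.17 for Prss2, −0.22 for Try5 and −0.26 for the acinar list. The neutrophil list was at 1.39 with keratin below 0.1%, 0.023 with no filter and 1.54 without dividing cells. A pseudocount of 1 gave 677 higher and 570 lower genes over epithelial-type cells, 202 and 178 over Penk-type cells and 1038 and 824 between libraries, and 11 lists with a median past 2-fold over epithelial-type cells in place of 2. A minimum of 20000 UMIs gave 32 higher and 32 lower genes over Penk-type cells. Lists with a median past 1.2-fold between libraries numbered 4, and 1 without cells holding RNA of other cell types, 2 with no filter and 2 without dividing cells. The Lum-type share in iIRE and control was 8.73% and 8.30% at a sum of at least 20, and 10.9% and 10.8% at keratin below 0.1%. In control it was 14.8% at 20000 UMIs. In iIRE it was 14.8% without cells holding RNA of other types and 12.9% at 10 Cdkn2a UMIs. The dividing share in iIRE and control was 67.5% and 47.7% at 20000 UMIs, 39.9% and 31.2% at keratin below 0.1%, 34.3% and 26.9% without cells holding RNA of other types, 39.1% and 29.5% without doublets, 37.7% and 28.7% after thinning, and 47.5% and 37.5% at 10 Cdkn2a UMIs. The cause of these moves was not tested. Genes near 50 UMIs are limited by counting, and no setting can replace replicate libraries.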
